A study of Mus musculus with 15 samples.

Results

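Chemokine genes and Ptgs2, 10 of the 55450 genes counted in the gastrocnemius of aged mice, were followed mouse by mouse. They are Ccl2, Ccl6, Ccl7, Ccl8, Ccl9, Cxcl1, Cxcl9, Cxcl12, Cx3cl1 and Ptgs2, taken by symbol, and each matched 1 Ensembl gene. The members were chosen by symbol with the results of these mice known, and not blindly, since the study names Ccl8 and Ptgs2 beside the inflammation terms of its High Run against High Control comparison in these same mice. They were thus selected on their difference between those 2 groups, and for both genes that comparison is therefore given below as a description without a test. All 10 were among the 16920 genes that passed the filter on low counts.

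The mice were C57BL/6JN females older than 17 months, and every library came from 1 mouse. Low frailty marked mice, labelled robust, carried at most 1 positive frailty marker, and High frailty marked mice, labelled frail, carried at least 2. All mice shared 1 strain with no altered allele, frailty was scored on performance, body weight and a deficit index, and mice were put into the Low or High group from the total of their markers after sacrifice. Run mice completed 2 bouts of downhill treadmill running at 13 m/min on a 22 degree decline and were sampled 24 h after the last bout, while Control mice stayed sedentary in their cages. The groups held 4 Low Control (D8, D9, D11, D98), 4 Low Run (D57, D61, D66, D68), 3 High Control (D23, D25, D67) and 4 High Run mice (D49, D52, D53, D62), and values are listed in that order throughout.

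Chemokines are small secreted proteins that guide leukocytes along a gradient by binding G protein-coupled receptors on the migrating cell. Muscle made to lengthen under load, as in downhill running, recruits neutrophils and then monocytes, and the CC chemokines of this list draw monocytes and macrophages, Cxcl1 draws neutrophils and Cxcl9 draws activated T cells. Cxcl12 and the membrane-tethered Cx3cl1 are made by resident cells without injury, and Ptgs2 encodes cyclooxygenase-2, the inducible enzyme that starts prostaglandin synthesis.

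Promoter windows of 250 bases before to 50 bases after the annotated start were present in the RefSeq table (GRCm38.p6) for 8 of the 10 genes, all but Ccl2 and Ccl7. The stretches just before the start are printed for Ccl8 and Ptgs2, which separated run from control mice in the High groups, for Cxcl1 and Cxcl9, which varied most between mice, and for the neighbours Ccl6 and Ccl9, which varied together. Each reads 5′ to 3′ on the strand of its gene, and capitals mark matches on either strand of any motif searched.
Ccl8, chr11:82115065-82115184, plus strand: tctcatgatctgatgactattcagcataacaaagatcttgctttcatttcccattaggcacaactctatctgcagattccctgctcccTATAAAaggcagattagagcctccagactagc
Ptgs2, chr1:150099911-150100030, plus strand: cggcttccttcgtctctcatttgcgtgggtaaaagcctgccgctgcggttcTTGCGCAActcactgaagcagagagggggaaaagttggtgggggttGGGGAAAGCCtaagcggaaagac
Cxcl1, chr5:90891125-90891244, plus strand: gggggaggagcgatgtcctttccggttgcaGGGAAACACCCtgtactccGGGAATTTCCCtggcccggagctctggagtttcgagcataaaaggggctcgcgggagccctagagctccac
Cxcl9, chr5:92328080-92328329, minus strand: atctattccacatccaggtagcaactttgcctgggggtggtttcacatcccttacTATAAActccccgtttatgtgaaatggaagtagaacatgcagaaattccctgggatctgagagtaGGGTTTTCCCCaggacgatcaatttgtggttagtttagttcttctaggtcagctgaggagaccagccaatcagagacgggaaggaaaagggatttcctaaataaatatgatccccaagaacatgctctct
Ccl6, chr11:83593088-83593207, minus strand: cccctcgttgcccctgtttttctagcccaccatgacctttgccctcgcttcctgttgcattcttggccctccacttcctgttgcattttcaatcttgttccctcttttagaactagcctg
Ccl9, chr11:83578637-83578756, minus strand: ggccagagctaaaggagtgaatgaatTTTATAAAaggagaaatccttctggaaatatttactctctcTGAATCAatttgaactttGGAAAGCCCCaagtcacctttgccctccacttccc

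The motifs were NF-kB (GGG, any 5 bases, CC), AP-1 (TGANTCA), CRE (TGACGTCA), ISRE (GAAA, any 2 bases, GAAA), C/EBP (TTGCNNAA) and the TATA box (TATAAA), each searched on both strands of the whole window. NF-kB letters were found for 5 of the 8 genes (Ptgs2, Cxcl1, Cxcl9, Cxcl12 and Ccl9), beside 50.8% of all 32851 windows, so the match is common. In Cxcl1 the letters occur at 2 places, beginning 90 and 71 bases before the start, each matched on both strands and overlapping itself. C/EBP letters were found only in Ptgs2 among the 8, against 10.8% of all windows, and AP-1 letters in Cxcl9 and Ccl9, against 7.81%. TATA box letters were found in Cxcl9, Cx3cl1, Ccl8 and Ccl9, against 13.6%. They begin 195 bases before the start in Cxcl9, 6 in Cx3cl1 and 32 in Ccl8, and at 224, 94 and 92 bases before it in Ccl9. No CRE or ISRE letters were found in the 8 windows, where 1.79% and 3.44% of all windows hold them.

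Each mouse gave 19395125 to 30699216 counts, with a median of 25926420. Muscle fibre markers summed to between 103300 and 167600 CPM (counts scaled to the TMM-adjusted library size) in every mouse, the highest of the 10 marker lists. At an FDR of 0.1, edgeR's quasi-likelihood test called 0 of the 16920 genes (0%) in each of the 5 comparisons used here, while 424 to 2274 genes had an unadjusted p under 0.05. The median log2 fold change over all tested genes was 0.02 for Low Run relative to Low Control mice and 0.05 for High Run relative to High Control mice. In a muscle homogenate, fewer cells of a type and less RNA per cell cannot be told apart.

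Per kilobase of exon, Cxcl12 stood highest at 11.8 ± 2.51 CPM per kb (SD over 15 mice), followed by Ccl6 at 10.2 ± 3.64, Ccl8 at 6.17 ± 6.75 and Ccl9 at 3.21 ± 0.818. Cxcl1 at 1.90 ± 2.29, Ccl2 at 1.602 ± 0.839, Ccl7 at 1.51 ± 0.826 and Cx3cl1 at 1.43 ± 0.412 CPM per kb came next, and Cxcl9 at 0.788 ± 1.19 and Ptgs2 at 0.438 ± 0.423 were lowest. Every neighbouring pair in this order differed on average by less than the SD of its difference within mice. The coefficient of variation over the 15 mice ran from 21.3% for Cxcl12 to 150.9% for Cxcl9, and was 120.5% for Cxcl1, 109.5% for Ccl8 and 96.7% for Ptgs2. Cxcl12, Ccl9, Cx3cl1 and Ccl6 varied least, from 21.3% to 35.8%.

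**Figure D1:**
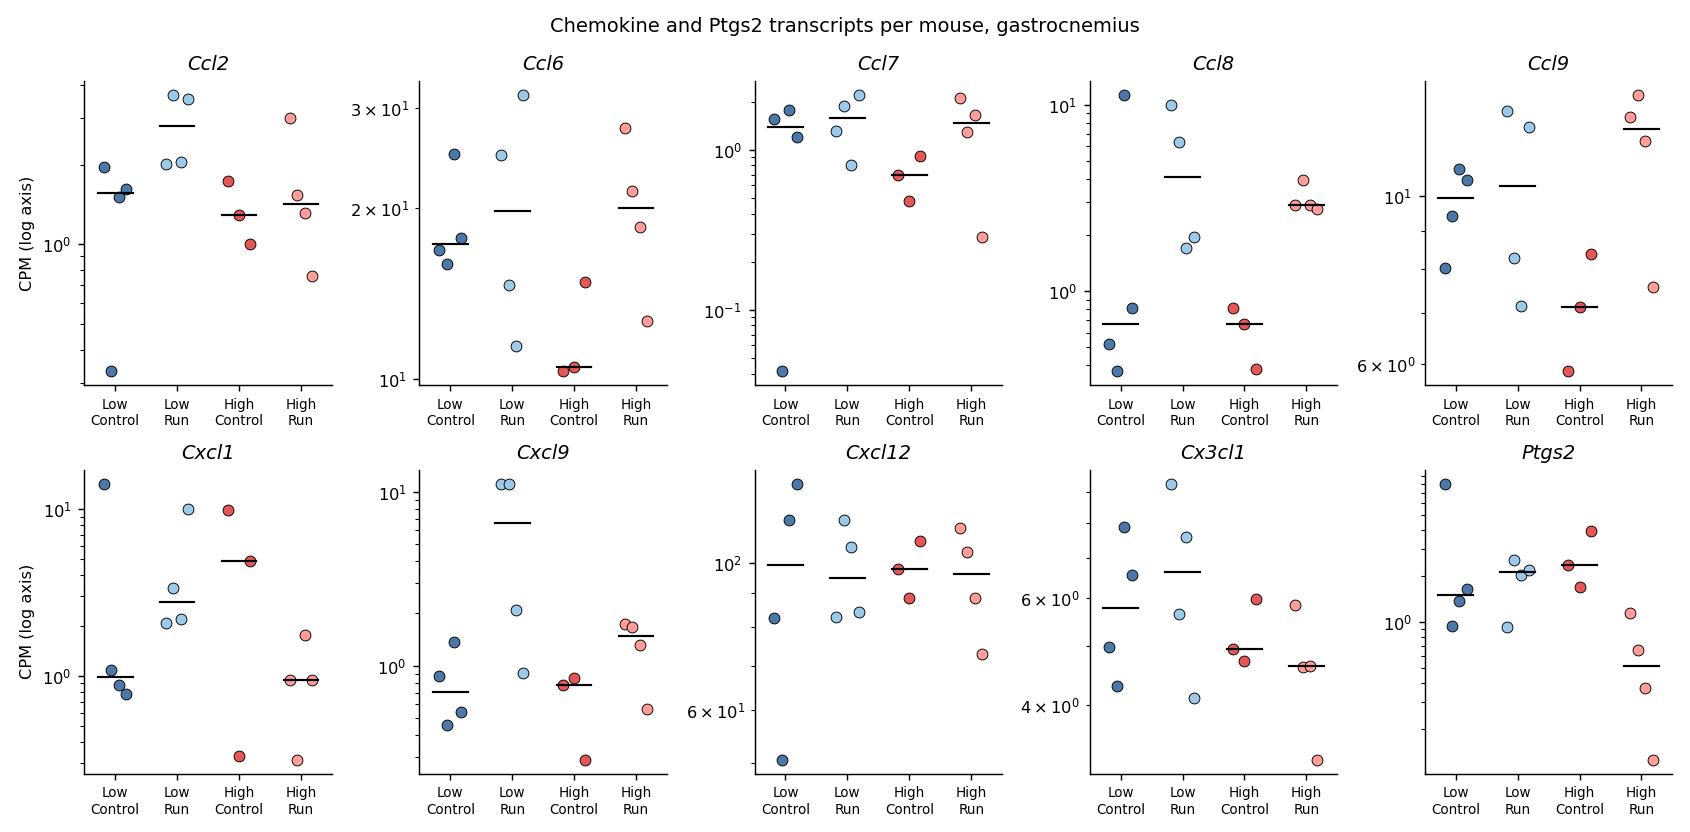
Level of each of the 10 genes in every mouse, in CPM on a log axis, with 1 point per mouse, 1 column per group and a black line at the group median. Ccl8 lies higher and Ptgs2 lower in all 4 High Run mice than in all 3 High Control mice, and single mice stand far from their group for Ccl8 (11.3 CPM in Low Control D11) and Cxcl1 (14.2 CPM in Low Control D8).

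Ccl2, Ccl7 and Ccl8 are monocyte chemoattractants encoded in a cluster on the plus strand of chromosome 11. Ccl8 (ENSMUSG00000009185, GRCm38 chromosome 11, 82115185 to 82116799) was at 0.521, 0.373, 11.3 and 0.811 CPM in Low Control and 10.0, 6.27, 1.71 and 1.96 CPM in Low Run mice. It was at 0.811, 0.665 and 0.383 CPM in High Control and 2.88, 3.97, 2.89 and 2.77 CPM in High Run mice, from 8 to 21 reads against 70 to 114 reads. Every High Run mouse therefore held more Ccl8 than every High Control mouse, and the High Run mice lay close together, whereas in Low mice the groups overlapped through the single Low Control mouse D11. Ccl8 had a log2 fold change of 2.31 (SE 1.03, 4.96-fold) for High Run relative to High Control mice, and between 2.08 and 2.54 with any 1 mouse left out. For Low Run relative to Low Control mice it was 0.63 (SE 0.82; edgeR FDR 0.724). Without mouse D11 this Low value was 3.11, and Ccl8 then no longer overlapped between the Low groups.

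The 13 macrophage markers, of which none was at 0 in any mouse, summed to 109.4 to 172.1 CPM in High Control and 157.5 to 327.9 CPM in High Run mice. Mouse D62 had a sum of 157.5 CPM, within the High Control range, and 2.77 CPM of Ccl8. Its Mpeg1, Cd68, C1qa, Cd163 and Lyve1 lay above all High Control mice. Its Folr2, Timd4 and Itgam lay below them all, and the other markers lay within their range. In Low mice the sum ran from 136.2 to 246.3 CPM without and 208.9 to 281.0 CPM with running, and mouse D11 had the highest Low Control value. All 13 markers had a positive log2 fold change in High mice. Without overlap there, 3 were higher and 0 lower, beside 3.47% and 3.6% of all tested genes. The study names Mpeg1, 1 of these 3, in that comparison, so the count is no independent result. In Low mice, 11 of the 13 markers had a positive log2 fold change. Without overlap, 1 was higher and 1, Cd163, was lower, beside 3.35% and 3.59% of all tested genes. Cd163 was at 16.0 to 24.8 CPM in Low Control and 11.5 to 14.0 CPM in Low Run mice. The part of these cells in the Ccl8 levels was not tested.

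Ccl2 (ENSMUSG00000035385, chromosome 11, 82035571 to 82037453), the main ligand of the monocyte receptor Ccr2, was at 1.95, 0.331, 1.50 and 1.62 CPM in Low Control and 2.02, 3.68, 2.05 and 3.56 CPM in Low Run mice. In High Control mice it was at 1.74, 1.29 and 1.01 CPM, and in High Run mice at 3.01, 1.53, 1.31 and 0.756 CPM. All Low Run mice lay above all Low Control mice, by a margin of 1.95 against 2.02 CPM, and the High groups overlapped. This gave a log2 fold change of 1.06 (SE 0.46; edgeR FDR 0.359) for Low Run relative to Low Control mice, 0.28 (SE 0.50; FDR 0.976) for High Run relative to High Control mice and -0.78 (SE 0.68; FDR 0.683) for the Frailty × Run interaction. The Low value was 0.73 without Low Control mouse D9, which held 8 reads of Ccl2. Ccl7 (ENSMUSG00000035373, chromosome 11, 82045712 to 82047525), another Ccr2 ligand, ranged from 0.0414 CPM (1 read) in the same mouse D9 to 2.21 CPM in Low Run mouse D68. Its log2 fold changes were 0.44 (SE 0.64; FDR 0.756) in Low mice and 0.93 (SE 0.73; FDR 0.958) in High mice, with overlap in both.

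Ccl6 and Ccl9, macrophage-derived ligands of Ccr1, lie next to each other on the minus strand of chromosome 11 (ENSMUSG00000018927, 83587882 to 83593087, and ENSMUSG00000019122, 83572919 to 83578636). Ccl6 was at 16.8, 15.9, 24.8 and 17.7 CPM in Low Control, 24.8, 14.6, 11.4 and 31.6 CPM in Low Run, 10.3, 10.5 and 14.8 CPM in High Control and 27.7, 21.4, 18.5 and 12.6 CPM in High Run mice. Ccl9 was at 8.03, 9.40, 10.8 and 10.5 CPM in Low Control, 13.0, 8.29, 7.16 and 12.3 CPM in Low Run, 5.87, 7.13 and 8.38 CPM in High Control and 12.7, 13.6, 11.8 and 7.59 CPM in High Run mice. In both genes 3 of the 4 High Run mice lay above all High Control mice and D62 lay among them, while the Low groups overlapped widely. The log2 fold change for High Run relative to High Control mice was 0.76 for Ccl6 (SE 0.32; edgeR FDR 0.956) and 0.68 for Ccl9 (SE 0.24; FDR 0.956). For Low Run relative to Low Control mice it was 0.13 (SE 0.29; FDR 0.854) and 0.07 (SE 0.22; FDR 0.90). The interaction was 0.63 for Ccl6 (SE 0.43; FDR 0.634) and 0.61 for Ccl9 (SE 0.32; FDR 0.60), so a difference in response between Low and High mice was not shown.

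Cxcl1 (ENSMUSG00000029380, chromosome 5, 90891241 to 90893115, plus strand), a neutrophil attractant that binds Cxcr2, was at 14.2, 1.08, 0.885 and 0.772 CPM in Low Control and 2.06, 3.35, 2.17 and 9.92 CPM in Low Run mice. It was at 9.89, 0.332 and 4.88 CPM in High Control and 0.947, 0.313, 1.75 and 0.945 CPM in High Run mice. Single mice set these means, D8 in Low Control and D68 in Low Run, and High Control mouse D25 lay among the High Run mice. As a log2 fold change, Cxcl1 differed by 0.04 (SE 0.94; edgeR FDR 0.988) in Low mice and -2.34 (SE 1.06; FDR 0.956) in High mice. Without mouse D8 the Low value was 2.25, and without mouse D68 it was -0.74. The High value was -1.37 without High Control mouse D23.

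The sum of 9 markers of inflammatory monocytes and neutrophils was also high in D8 and D68, though not every marker was. The 9 markers, Cxcr2 among them, summed to 73.2 CPM in D8 against 16.0 to 20.8 CPM in the other Low Control mice. They summed to 445.6 CPM in D68 against 17.9 to 24.1 CPM in the other Low Run mice. In D8, S100a8, S100a9, Ly6g, Retnlg, Csf3r and Cxcr2 were the highest of the Low Control mice. Chil3 (0.477 CPM) and Plac8 (0.868 CPM) were the lowest in D8, and Ly6c2 lay within the range of the others. In D68 all markers but Plac8 were the highest of the Low Run mice. In High Control mice the sum was 44.7, 3.91 and 26.7 CPM in D23, D25 and D67, the order of their Cxcl1. In High Run mice it was 75.7, 7.20, 63.2 and 7.56 CPM, while Cxcl1 stayed below 2 CPM in all 4. The neutrophil marker Ly6g was at 0 in at least 1 mouse of every group, and the part of these cells in the Cxcl1 levels was not tested.

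Cxcl9 (ENSMUSG00000029417, chromosome 5, 92321347 to 92328079, minus strand), an interferon-gamma-induced ligand of Cxcr3, was at 0.868, 0.455, 1.37 and 0.540 CPM in Low Control and 11.1, 11.1, 2.09 and 0.902 CPM in Low Run mice. It was at 0.772, 0.849 and 0.287 CPM in High Control and 1.73, 1.67, 1.31 and 0.567 CPM in High Run mice. Mice D57 and D61, with 264 and 309 reads, lay far above all others, and Low Run mouse D68 stayed within the Low Control range. The log2 fold change for Low Run relative to Low Control mice was 2.97 (SE 0.68, 7.83-fold; edgeR FDR 0.358). DESeq2's Wald test called this gene at an FDR of 0.0251, among 9 of 28511 genes (0.0316%), and edgeR without the count filter called it at an FDR of 0.0364, among 86 of 35419, while limma's voom with quality weights gave 0.608. Over all alternatives, mice left out included, its FDR ran from 0.0251 to 0.836. With any 1 mouse left out the Low value lay between 2.53 and 3.33. In High mice the log2 fold change was 1.01 (SE 0.76; edgeR FDR 0.958), and the interaction was -1.96 (SE 1.00; FDR 0.60).

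The 7 T and NK cell markers summed to 13.9 CPM in D61 and 1.72 CPM in D57, the mice with the most Cxcl9. The other Low Run mice had 2.05 and 1.30 CPM and Low Control mice 0.347 to 0.929 CPM. High Control mice had 0.665 to 1.00 CPM and High Run mice 1.575 to 2.47 CPM. Of the 7 markers, 3 could be tested. In Low mice all 3 were higher at an unadjusted p under 0.05 in edgeR's test, beside 5.92% of all tested genes. In High mice 1 was, beside 3.28%. Counts were low, from 8 reads over the 7 markers in D8 to 386 in D61, and Ncr1 and Klrb1c were at 0 in at least 1 mouse of every group. The receptor Cxcr3 was at 1.98 CPM in D61 and at 0.639 CPM or lower in the other 14 mice, and its log2 fold change in Low mice was 2.29 (SE 0.77; edgeR FDR 0.358). Cxcl10, another Cxcr3 ligand named after its values were seen, was at 5.84 and 4.29 CPM in D57 and D61 and at 0.704 to 2.22 CPM in the other mice. The part of T cells in the Cxcl9 levels was not tested.

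Cxcl12 (ENSMUSG00000061353, chromosome 6, 117168535 to 117181367, plus strand), the stromal ligand of Cxcr4 and Ackr3, was the steadiest of the 10. It averaged 95.3 ± 36.2 CPM (SD, n = 4) in Low Control and 97.2 ± 16.3 CPM (n = 4) in Low Run mice. High mice averaged 98.1 ± 9.64 CPM (n = 3) without running and 94.6 ± 17.7 CPM (n = 4) with it, and Low Control mouse D9 was lowest at 50.5 CPM. Cxcl12 had a log2 fold change of 0.03 (SE 0.24; edgeR FDR 0.964) in Low mice and -0.05 (SE 0.26; FDR 0.99) in High mice. Cx3cl1 (ENSMUSG00000031778, chromosome 8, 94772009 to 94782427, plus strand), the ligand of Cx3cr1, ranged from 3.24 CPM in High Run mouse D62 to 9.29 CPM in Low Run mouse D57. Its log2 fold change was 0.17 (SE 0.26; FDR 0.764) in Low mice and -0.19 (SE 0.28; FDR 0.969) in High mice, and the groups overlapped in both comparisons. Neither gene separated run from control mice.

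Ptgs2 (ENSMUSG00000032487, chromosome 1, 150100031 to 150108227, plus strand) was at 8.07, 0.952, 1.37 and 1.66 CPM in Low Control and 0.925, 2.56, 2.05 and 2.21 CPM in Low Run mice. It was at 2.36, 1.70 and 3.93 CPM in High Control and 1.15, 0.661, 0.369 and 0.126 CPM in High Run mice, from 46 to 82 reads against 4 to 28 reads. All High Run mice lay below all High Control mice, and mouse D8, which also held the most Cxcl1, stood above every other mouse. Ptgs2 had a log2 fold change of -2.22 (SE 0.72, 4.66-fold lower) for High Run relative to High Control mice, and between -2.79 and -1.84 with any 1 mouse left out. For Low Run relative to Low Control mice it was -0.64 (SE 0.63; edgeR FDR 0.63), and without D8 it was 0.54.

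Read across the list, 2 of the 10 genes did not overlap between High Run and High Control mice, Ccl8 higher and Ptgs2 lower, where 3.47% of all tested genes were higher and 3.6% lower without overlap. Both are the genes the study had already singled out in this comparison, so the count is no independent result. Without D62, Ccl6, Ccl7, Ccl9 and Cxcl9 also did not overlap, all higher, and the share of all tested genes that were higher without overlap was then 7.03%. Without High Control mouse D67, Ccl6 and Ccl9 did so, beside 5.76% of all genes. For Low Run relative to Low Control mice Ccl2 alone did not overlap, higher in Low Run mice, as were 3.35% of all tested genes. Ccl8 and Cxcl9 joined it without D11, where 6.08% of all genes were higher without overlap, Cxcl1 without D8 (4.97%) and Cxcl9 without D68 (5.28%). Leaving out 1 mouse at a time was added after seeing these counts.

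At an unadjusted p under 0.05 in edgeR's test, 2 of the 10 genes were higher in Low Run than in Low Control mice (Ccl2 and Cxcl9) and 0 lower, where 5.92% of all tested genes were higher and 7.52% lower. In the High comparison, of the 8 genes other than Ccl8 and Ptgs2, 2 were higher (Ccl6 and Ccl9) and 1 lower (Cxcl1), beside 3.28% and 1.9% of all genes. The median log2 fold change of the 10 genes was 0.15 in Low and 0.48 in High mice, and the High median includes Ccl8 and Ptgs2, which were chosen on that comparison. At an FDR of 0.1 edgeR called 0 of the 10 genes in the Low comparison and 0 of those 8 in the High comparison.

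**Figure D2:**
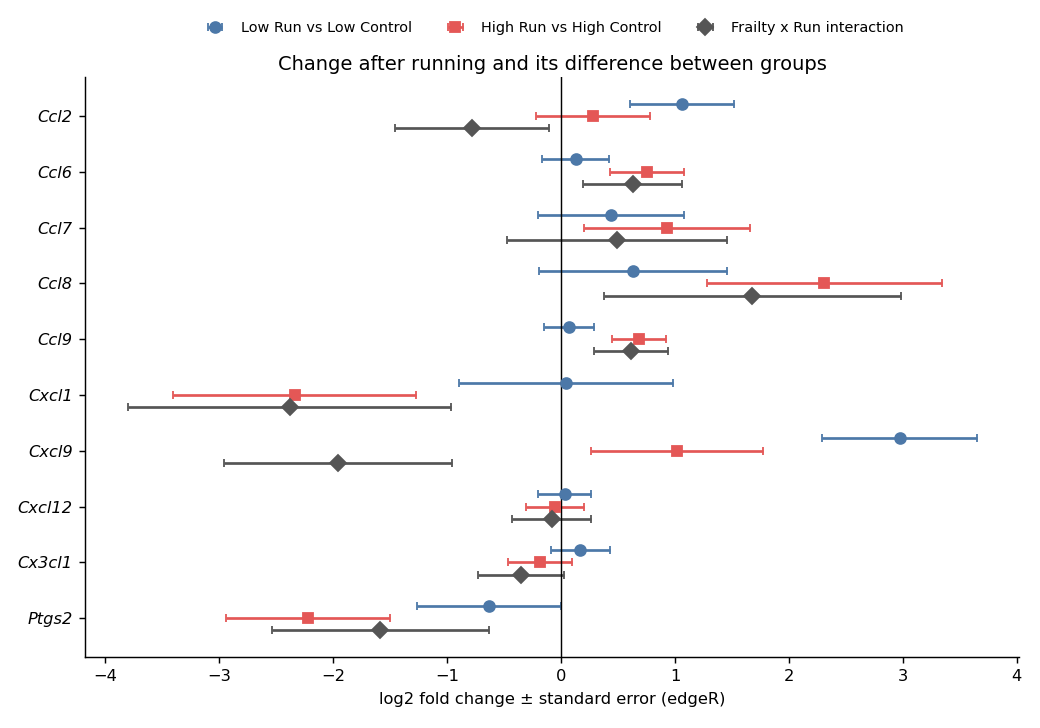
The log2 fold change after running with its standard error from edgeR, for each of the 10 genes, in Low mice (blue circles), in High mice (red squares) and as the Frailty × Run interaction (grey diamonds, the High minus the Low value). Ptgs2 and Cxcl1 lie lowest in High mice, Cxcl9 lies highest in Low mice at 2.97, and Cxcl12 lies at 0.03 and -0.05.

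The difference in response between High and Low mice was asked directly by the interaction. No member had an unadjusted p under 0.05 (0 of 10, beside 7.93% of all tested genes), and the edgeR FDR of the 10 genes ran from 0.60 to 0.948. The interaction of Ccl8 was 1.68 (SE 1.30; FDR 0.657), and it was -0.80 without D11, so its sign rested on that mouse. That of Ptgs2 was -1.59 (SE 0.95; FDR 0.613) and -2.76 without D8, and that of Cxcl1 was -2.38 (SE 1.42; FDR 0.611) and -4.59 without D8. For Ccl8 and Ptgs2 the interaction holds the High difference that chose them, so their values there are no independent test.

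**Figure D3:**
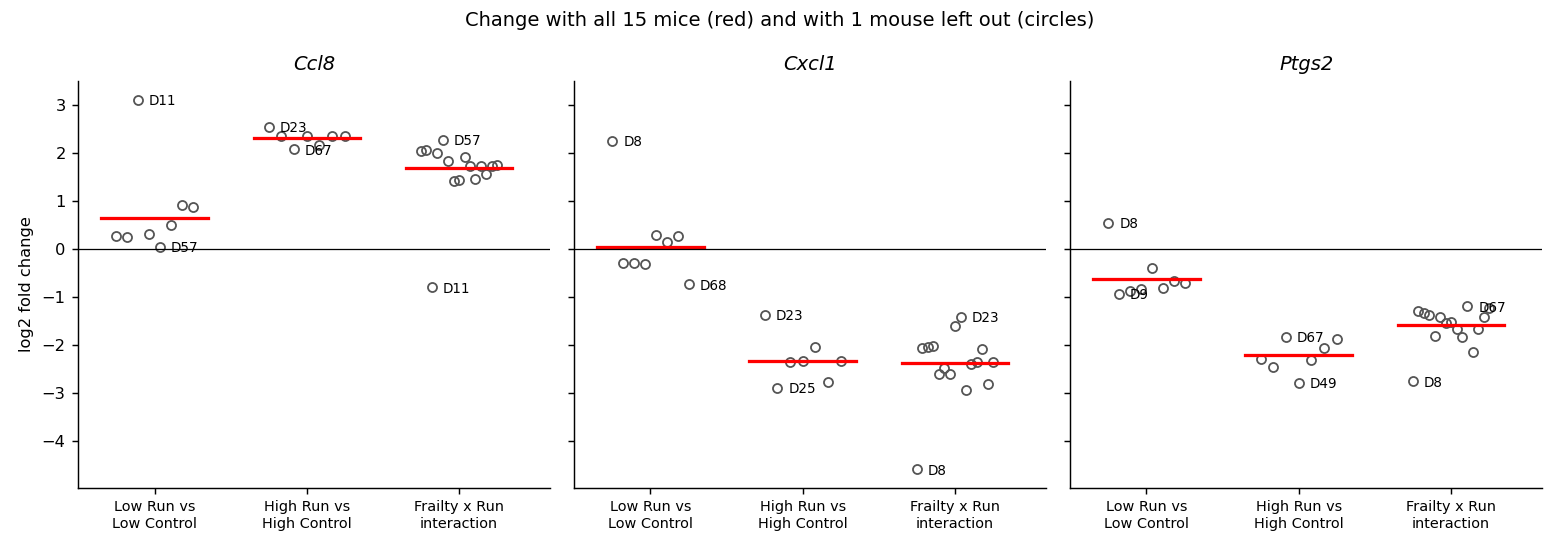
The log2 fold change of Ccl8, Cxcl1 and Ptgs2 in the Low comparison, the High comparison and the interaction, with all 15 mice (red line) and with 1 mouse left out at a time (open circles, with the mouse named for the lowest and highest value). The Ccl8 interaction is 1.68 with all mice and -0.80 without D11, and the High values of Ccl8 stay between 2.08 and 2.54.

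Sedentary mice were compared to see how the genes differed with frailty before running. Ccl6 was lower in all 3 High Control than in all 4 Low Control mice, at no more than 14.8 against at least 15.9 CPM, where 5.27% of all tested genes were lower without overlap. Its log2 fold change was -0.67 (SE 0.32; edgeR FDR 0.704), and between -0.85 and -0.51 with any 1 mouse left out. Ccl8 had a log2 fold change of -2.36 (SE 1.04), but this value was 0.13 without D11. The High Control values of Ccl8 and Ptgs2 are among those that chose them, so both are described here without a test. No other member was lower at an unadjusted p under 0.05 in edgeR's test, where 4.06% of all genes were. Of the 10 genes, Ccl8 and Ptgs2 included, 8 had a negative log2 fold change in High Control mice, with a median of -0.25 beside -0.02 over all tested genes. Ptgs2 differed by -0.18 (SE 0.67), and by 0.99 without D8.

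Between the run groups, Cxcl1 was lower in all High Run mice, at 1.75 CPM or less, than in all Low Run mice, at 2.06 CPM or more, where 0.774% of all tested genes were lower without overlap. Its log2 fold change was -2.13 (SE 1.02; edgeR FDR 0.999). Cxcl9 at -2.27 (SE 0.64; edgeR FDR 0.999) was lower with overlap. It had an unadjusted p under 0.05 in edgeR's test, beside 0.987% of all genes lower at that level. Ptgs2 at -1.77 (SE 0.69) was also lower with overlap. Its High Run values are among those that chose it, so it is described here without a test. Of the 10 genes, Ccl8 and Ptgs2 included, 9 had a negative value, with a median of -0.61 beside 0.01 over all genes. These comparisons share mice with the run comparisons and are no separate evidence for them.

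Of the receptors of these ligands, edgeR called 0 at an FDR of 0.1, and 1 of the 13 listed receptors tested had an unadjusted p under 0.05 in each run comparison (Cxcr3 in Low mice, given above, and Cx3cr1 in High mice), beside 13.4% of all tested genes in Low and 5.18% in High mice. Cx3cr1 was at 0.24 CPM in High Control and 0.743 CPM in High Run mice on average, a log2 fold change of 1.63 (SE 0.69; edgeR FDR 0.956), with overlap. Ccr2 had log2 fold changes of 0.16 in Low and 0.81 in High mice, and Ccr1 0.88 and 0.47, in each case with overlap. Cxcr2 had 1.44 and 0.09, and Cxcr4 0.34 and -0.43. Ackr3, the scavenging receptor of Cxcl12, was the 1 receptor without overlap in the High comparison, where 3.6% of all tested genes were lower without overlap, at 29.5 CPM in High Control and 22.7 CPM in High Run mice (log2 fold change -0.38, SE 0.19; FDR 0.956). Over the 13 of 22 listed receptors that could be tested, 12 had a positive log2 fold change in Low and 10 in High mice, with medians of 0.55 and 0.60. Of the 17 of 29 other chemokines tested, 11 had a positive value in each comparison, with medians of 0.35 and 0.22, and edgeR called 0, with 4 at an unadjusted p under 0.05 in Low and 3 in High mice, beside 13.4% and 5.18% of all tested genes.

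Other genes of the prostanoid pathway were measured beside Ptgs2. Ptgs1, the constitutive cyclooxygenase, was at 3.28, 4.25 and 3.35 CPM in High Control and 4.57, 5.74, 4.94 and 5.54 CPM in High Run mice, without overlap (log2 fold change 0.52, SE 0.20; edgeR FDR 0.956). In Low mice its log2 fold change was -0.32 (SE 0.19; FDR 0.42). Hpgd, which breaks prostaglandins down, was also higher in every High Run mouse, with a log2 fold change of 0.38 (SE 0.35, FDR 0.958). Ptgs1 and Hpgd were named because they did not overlap in the High comparison, where 3.47% of all tested genes were higher without overlap. Their separation is thus no independent result. The prostaglandin E2 receptors Ptger2 and Ptger4 had log2 fold changes of 0.46 and -0.16 in Low and 0.65 and 0.00 in High mice, with overlap. Of 17 prostanoid genes tested among 20 listed, 2 had an unadjusted p under 0.05 in the High comparison, both higher, beside 3.28% of all tested genes higher, and 0 in the Low comparison, beside 13.4% of all genes in either direction.

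Among 15 cytokine and NF-kB feedback genes that induce or accompany chemokines, 10 could be tested and edgeR called 0, with 1 at an unadjusted p under 0.05 in each run comparison, beside 13.4% of all tested genes in Low and 5.18% in High mice. Selp, the endothelial selectin on which leukocytes roll, was higher in each High Run mouse than in each High Control mouse, with a mean of 3.74 against 1.88 CPM (log2 fold change 0.99, SE 0.40; edgeR FDR 0.956). High Run mouse D52 held the most, at 6.75 CPM. Icam1, to which leukocyte integrins bind, did not overlap either, at 11.0 against 8.01 CPM on average (log2 fold change 0.46, SE 0.24; FDR 0.956). Both genes were named because they did not overlap in the High comparison, where 3.47% of all tested genes were higher without overlap. The separation of Selp and Icam1 is thus no independent result. In Low mice the log2 fold changes were -0.02 for Selp and 0.15 for Icam1.

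Which members varied together from mouse to mouse was examined over log2 CPM (prior count 2) in the 15 mice, for all 45 pairs. The labels give no sequencing batch, so values within batches could not be taken. Ccl6 and Ccl9 correlated at Pearson's r = 0.91 (permutation p = 2e-05, adjusted 0.0009) and Spearman's rho = 0.91 (permutation p = 2e-05, adjusted 0.0009). Without D68 and D49, the 2 mice farthest from the median of Ccl6, r was 0.91, and with the group means removed it was 0.89. Ccl2 and Ccl7 correlated at r = 0.86 (permutation p = 0.00012, adjusted 0.0027) and rho = 0.70 (permutation p = 0.00516, adjusted 0.0464). Without D9 and D61 the r was 0.71 with an adjusted permutation p of 0.0951, so this relation rested in part on those mice. Ccl8 and Cxcl9 correlated at r = 0.75 (permutation p = 0.00083, adjusted 0.0125) and rho = 0.78 (permutation p = 0.00118, adjusted 0.0266), and at r = 0.77 without D11 and D57. With the group means removed, which takes out any shared difference between groups, r was 0.89 for Ccl2 and Ccl7 and 0.66 for Ccl8 and Cxcl9, and the adjusted permutation p was 0.0563, 0.071 and 0.071 for the 3 pairs. The next pair by Pearson's r, Ccl7 and Cxcl12, had r = 0.72 (permutation p = 0.00603, adjusted 0.0678), but r = 0.07 without D9 and D62. Cxcl1 and Ptgs2 had r = 0.61 (permutation p = 0.0136, adjusted 0.121) and rho = 0.67 (permutation p = 0.00808, adjusted 0.0606), and r = 0.45 without D8 and D68. By Spearman's rho, Ccl6 with Ccl7 (rho = 0.74, adjusted permutation p = 0.0357) and Ccl2 with Cxcl9 (rho = 0.72, adjusted permutation p = 0.0389) also passed 0.05. Their adjusted permutation p for Pearson's r was 0.167 in each.

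**Figure D4:**
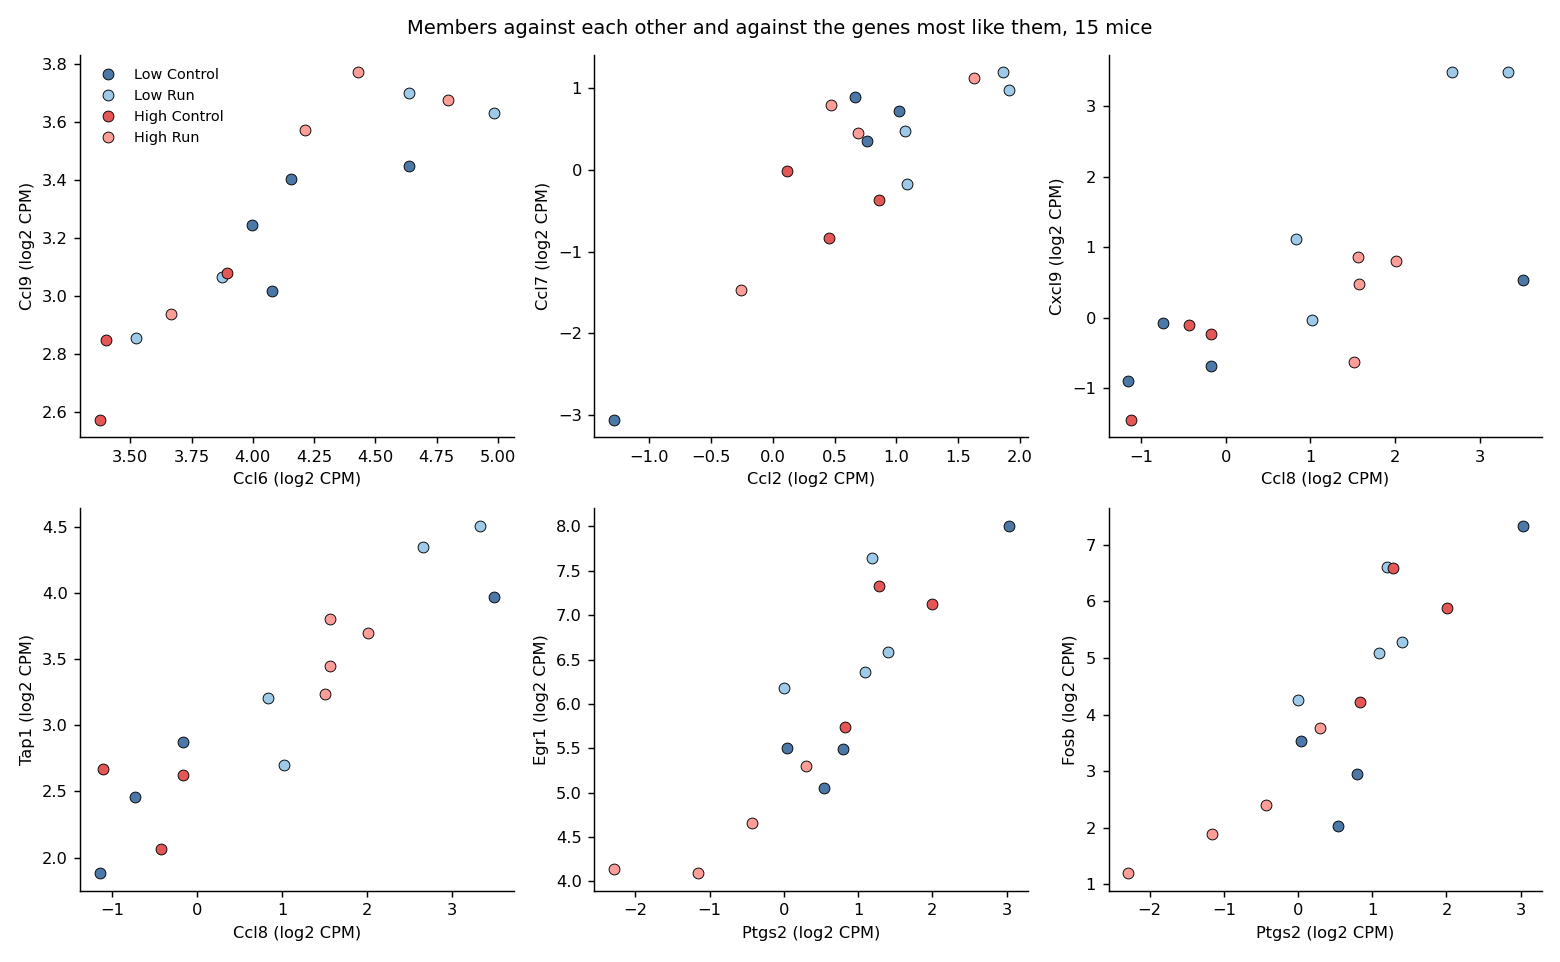
Log2 CPM of 6 pairs of genes in the 15 mice, coloured by group. The top row holds the 3 pairs of members past an adjusted permutation p of 0.05 for Pearson's r. The bottom row holds Ccl8 or Ptgs2 against genes most like them. Ccl6 and Ccl9 lie close to a line (r = 0.91), 1 mouse (D9) lies far below the rest for Ccl2 and Ccl7, and the 4 High Run mice hold low values of both Ptgs2 and Egr1.

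The genes most like Ccl8, by Pearson's r over the 15 mice among 16896 genes, were Tap1 (r = 0.92), Nlrc5 (0.916), Gbp7 (0.907), Psmb9 (0.897) and Bst2 (0.885). These values, and those given below for Ptgs2, Ccl2 and Cxcl12, were picked as the highest of many and are a description. Tap1 and Psmb9 serve peptide loading of MHC class I, Nlrc5 is the transactivator of those genes, and Gbp7 and Bst2 are interferon-induced. Tap1 was at 7.96 ± 5.29 CPM (SD, n = 4) in Low Control and 14.6 ± 8.05 CPM (n = 4) in Low Run mice. High mice had 5.49 ± 1.21 CPM (n = 3) without running and 11.8 ± 2.04 CPM (n = 4) with it, and the 9.35 to 13.9 CPM in High Run lay above the 4.10 to 6.27 CPM in High Control mice. With the group means removed, r stayed between 0.837 and 0.889 for these 5 genes.

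The 5 genes most like Ptgs2 were Pcca (r = 0.888), Egr1 (0.881), Gm13342 (0.868), Fosb (0.86) and Fos (0.853). Egr1, Fosb and Fos are immediate early genes, transcribed within minutes of a stimulus. Egr1 was at 53.5 to 160.6 CPM in High Control and 17.0 to 39.2 CPM in High Run mice, without overlap. Fosb was at 18.6 to 96.3 CPM against 2.21 to 13.4 CPM, also without overlap. Fos ran from 67.2 to 177.1 CPM against 12.7 to 47.9 CPM. These genes were picked for likeness to Ptgs2 over the same mice, group differences included, so a shared separation is no independent result. With the group means removed, r was 0.74 to 0.866 for the 5 genes. In Low mice the means differed by less than the spread between mice, with Egr1 at 95.2 CPM in Low Control and 112.7 CPM in Low Run, and Fosb at 46.2 and 47.4 CPM, but mouse D8 held the highest Low Control value of each at 257.3 and 161.7 CPM.

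The genes most like Ccl2 were Lrrc25 (r = 0.91), Itgb2 (0.886), Itgal (0.879), Cd53 (0.877) and Evi2a (0.876), of which Itgb2 and Itgal encode the chains of a leukocyte integrin and Cd53 a leukocyte tetraspanin. Itgb2 was at 5.93 ± 1.97 CPM (SD, n = 4) in Low Control against 11.5 ± 4.32 CPM (n = 4) in Low Run mice, and at 4.89 ± 0.532 CPM (n = 3) in High Control against 8.63 ± 4.24 CPM (n = 4) in High Run mice. The genes most like Cxcl12 were Aasdh (r = 0.931), Ifi203-ps (0.93), Ift80 (0.93), Ints2 (0.92) and Pigb (0.919). As for Cxcl12 itself, the group means of Aasdh lay close together, between 8.77 and 9.28 CPM, and r with the group means removed was 0.929 to 0.956 for these 5 genes.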

How the data were processed

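Bulk RNA sequencing of gastrocnemius was taken from 4 mice each of Low Control, Low Run and High Run and 3 of High Control, grouped by the robust or frail and control or run labels. The labels give no batch. The authors aligned reads with STAR 2.7.9a to mm10, kept uniquely aligned pairs and deposited whole-number counts per Ensembl gene from featureCounts, without normalization. The authors also deposited variance-stabilized values on a log2-like scale, made with DESeq2, used here only to repeat the correlations. Names, positions and exon lengths came from GENCODE M21 (GRCm38), and promoter windows from RefSeq (GRCm38.p6).

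The members and all gene lists were chosen with earlier results of these data known. Genes kept by filterByExpr were normalized by TMM and tested with edgeR 4.0.16 (R 4.3.3) by the quasi-likelihood F-test, with 1 mean per group over all 15 mice and Benjamini-Hochberg adjustment over 16920 genes, called at an FDR of 0.1. CPM are per mouse on the TMM-adjusted library size, and log2 CPM used a prior count of 2. Correlations used 100000 permutations in Python 3.11.15, two-sided, adjusted over 45 pairs. Genes beyond the members were named if they were receptors of members, passed the FDR, were among the 3 largest changes of a list without overlap in a run comparison, or were among the 5 most like Ccl8, Ccl2, Cxcl12 or Ptgs2. Alternatives were DESeq2 1.42.0, limma 3.58.1 with voom quality weights, other normalizations, no filter or a minimum of 10 counts, an FDR of 0.05, a fit to the compared groups only and each mouse left out. The fits and correlations were tested on simulated data. Low genes of a few reads, such as Ccl7 with 1 read in a mouse, are limited by depth, and total counts ran from 19395125 to 30699216. No column was left out. A receptor that the naming rule covers is not reported here.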

Additional observations from a re-analysis of the deposited data

Results flagged for a closer look

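Of 30 group levels of the 10 genes examined (groups of 4 mice only), 5 held a mouse whose distance to its nearest neighbour took up an unusually large share of the group's range. The cutoff flags about 1 in 20 groups of normally distributed values. CPM of low genes are skewed, and each flagged value was the highest of its group. The rate to be expected by chance here is therefore not known. Ccl8 stood apart in Low Control mouse D11 at 11.3 CPM and in High Run mouse D52 at 3.97 CPM, the second in a group that otherwise spanned 2.77 to 2.89 CPM. Cxcl1 stood apart in Low Control mouse D8 at 14.2 CPM and in Low Run mouse D68 at 9.92 CPM. Ptgs2 stood apart in Low Control mouse D8 at 8.07 CPM. Of the 5, 2 came from 1 mouse, D8, so they are not independent, and the 3 High Control mice were not examined in this way.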

How the results depend on the processing

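No member passed the FDR of 0.1 in edgeR's test, where Ccl8 and Ptgs2 are not counted for High Run relative to High Control mice. For Low Run relative to Low Control mice, Cxcl9 did under 2 alternatives, without the count filter (1 called) and with DESeq2 (1 called). No other alternative called a member, although only 4 members kept at least 10 counts in every mouse and could be tested under that filter, and no gene of the 4 pathway lists was called under any of them. Pairs of members past an adjusted permutation p of 0.05 for Pearson's r numbered 3 on log2 CPM and 4 on the deposited log2-like values. They numbered 2 without the 2 farthest mice, and 0 with group means removed. With voom the interaction was 1.21 for Ccl6, 1.00 for Ccl9 and -0.77 for Cxcl9, against 0.63, 0.61 and -1.96. Low Control mice D8 (Cxcl1, Ptgs2) and D11 (Ccl8) moved the fold changes most, and the cause was not tested. For High Control relative to Low Control mice, Cxcl1 was 2.46 without D8. No paired analysis was possible because the mouse numbers are unique to each mouse and pair none. Depth limits Ccl2, Ccl7, Ccl8, Cxcl1, Cxcl9 and Ptgs2, each with fewer than 10 reads in at least 1 mouse, and 3 or 4 mice per group limit every comparison.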
